A study of Mus musculus with 23 samples.

Results

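The subject is a small circuit around the epidermal growth factor (EGF) receptor, made up of 5 genes: the ligands Ereg (epiregulin) and Hbegf (heparin-binding EGF-like growth factor), the receptor Egfr, and the feedback inhibitors Errfi1 and Dusp1. Its members were all the probe sets that the array's annotation assigns to 1 of these symbols alone, which gave 9 probe sets for 5 of the 8251 genes measured under a single symbol. Ereg had 2 probe sets, Egfr 3, Errfi1 2, and Hbegf and Dusp1 had 1 each. The cells were primary mouse embryonic fibroblasts taken at e14.5, C57/BLACK6 and ATF1 -/+ in every group, starved for 48 hours in 1% dialyzed serum. They were then kept for 2 hours with 200 µM 4-thiouridine and tritiated cytidine in 10% serum (treated) or in 1% serum (starved). Each condition was measured as newly transcribed RNA, which is the thiolated RNA held back by an organomercurial matrix, as amplified total RNA and as total RNA. That made 6 groups, in this order: newly transcribed treated (4 arrays) and starved (4), amplified treated (4) and starved (3), and total treated (4) and starved (4), on 23 Affymetrix arrays in all. No unlabelled cells and no cells with an intact Atf1 locus are among the groups, and the titles call arrays biological replicates without saying what a number shares.

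EGF receptor ligands are made as membrane-bound precursors that metalloproteases of the ADAM family cut free. The ligand joins receptors into pairs that phosphorylate each other and switch on RAS, RAF, MEK and ERK, and ERK in turn drives transcription of immediate early genes. Among the genes switched on are ligands, which feed the signal forward, and inhibitors, which shut it off. Errfi1 (also called Mig6) binds the receptor's kinase domain and blocks it, and Dusp1 (also called MKP-1) is a nuclear phosphatase that strips phosphate from MAP kinases. In fibroblasts, serum is a classical trigger of this programme.

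Levels below are quantile-normalized probe set intensities, and differences are on the log2(intensity + 16) scale, where changes of dim probe sets come out too small. A difference is given ± the standard error (SE) of the limma fit, and it was called when the Benjamini-Hochberg adjusted p over all 12422 probe sets was below 0.05. Medians of the deposited intensities ran from 7.3 to 75.2 per array. By their whole profiles the arrays fell into 2 clusters that crossed the serum groups: the newly transcribed arrays numbered 1 and 4 of both conditions, amplified starved 1 and 3 and amplified treated 1 and 4 lay apart from all others. Same-numbered treated and starved arrays deviated together in newly transcribed RNA (correlations of 0.70 to 0.80) and in total RNA (0.23 to 0.70). Values of the 5 genes are therefore printed without and with the replicate number as a block. Genes of other lists are given with that block, beside their unblocked adjusted p. In amplified total RNA the correlations ran from -0.47 to 0.76, so fits that block its arrays by number serve only as alternatives. The summed intensity of 12 fibroblast markers was 8289 to 31290 per array, against 1305 to 8428 for 12 macrophage markers and at most 1914 for each list of endothelial, epithelial, muscle and neural markers. In whole cultures, fewer cells of a type and less RNA per cell cannot be told apart.

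Both ligands stood higher in serum-treated cells in all kinds of RNA. In newly transcribed RNA, Ereg (probe set 98802_at) had intensities of 1054, 756, 934 and 858 on the treated arrays, against 313, 205, 265 and 278 on the starved arrays. In amplified total RNA it had 376, 397, 253 and 357 treated, against 49.5, 58.1 and 71.4 starved. In total RNA it had 355, 615, 215 and 517 treated, against 42.6, 93.5, 41.2 and 79.8 starved. In each kind of RNA the lowest treated array lay above the highest starved one.

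The Ereg difference was 1.71 ± 0.17 in newly transcribed RNA, a fold of 3.27 with a 95% interval of 1.32 to 2.09 on the log2 scale. Its adjusted p was 0.0895 without the block, and with the pairs it rose by the same 1.71 ± 0.11 (adjusted p = 0.014). The 4 pairs differed by 1.70, 1.80, 1.76 and 1.57. In total RNA the difference was 2.42 ± 0.35 (adjusted p = 0.0649), and with the pairs Ereg rose by 2.42 ± 0.13 (adjusted p = 0.00718), the third largest difference of all probe sets. In amplified total RNA it had 2.25 ± 0.22 (adjusted p = 0.211), the second largest difference, with no call.

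Ordered by level, Ereg was highest in newly transcribed treated RNA, whose arrays did not overlap those of any other group next to it. Total treated, amplified treated and newly transcribed starved RNA followed and overlapped their neighbours in that order. Total starved and amplified starved RNA came last, below newly transcribed starved RNA without overlap and not apart from each other. The other probe set of the gene, 161158_f_at, lay between 0.372 and 26.3 on all arrays, and no difference is drawn from it.

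Hbegf, whose soluble form also binds heparan sulphate, varied more between arrays. In newly transcribed RNA its probe set had 3042, 1279, 1351 and 4110 on treated arrays, against 569, 279, 321 and 2721 on starved arrays. Starved array 4 stood high and above treated arrays 2 and 3, so the groups overlapped, while its treated partner was the highest of all. In amplified total RNA the values were 664, 389, 990 and 1438 treated, against 249, 116 and 425 starved, which overlapped. In total RNA they were 752, 1916, 1694 and 1844 treated, against 212, 395, 445 and 579 starved, with no overlap.

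In newly transcribed RNA the Hbegf difference was 1.78 ± 0.75 (adjusted p = 0.746). With the pairs it rose by 1.78 ± 0.30 (adjusted p = 0.0465), with pair differences of 2.39, 2.14, 2.02 and 0.59. Without starved array 4 the unblocked difference was 2.49 ± 0.49 (adjusted p = 0.374), and without pair 4 the paired one was 2.18 ± 0.13 (adjusted p = 0.0624). In total RNA Hbegf had 1.88 ± 0.37 (adjusted p = 0.231) and with the pairs rose by 1.88 ± 0.12 (adjusted p = 0.0116). Amplified total RNA gave 1.68 ± 0.55 (adjusted p = 1). By mean level its 6 groups stood in the same order as those of Ereg, and each overlapped the next.

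**Figure D1:**
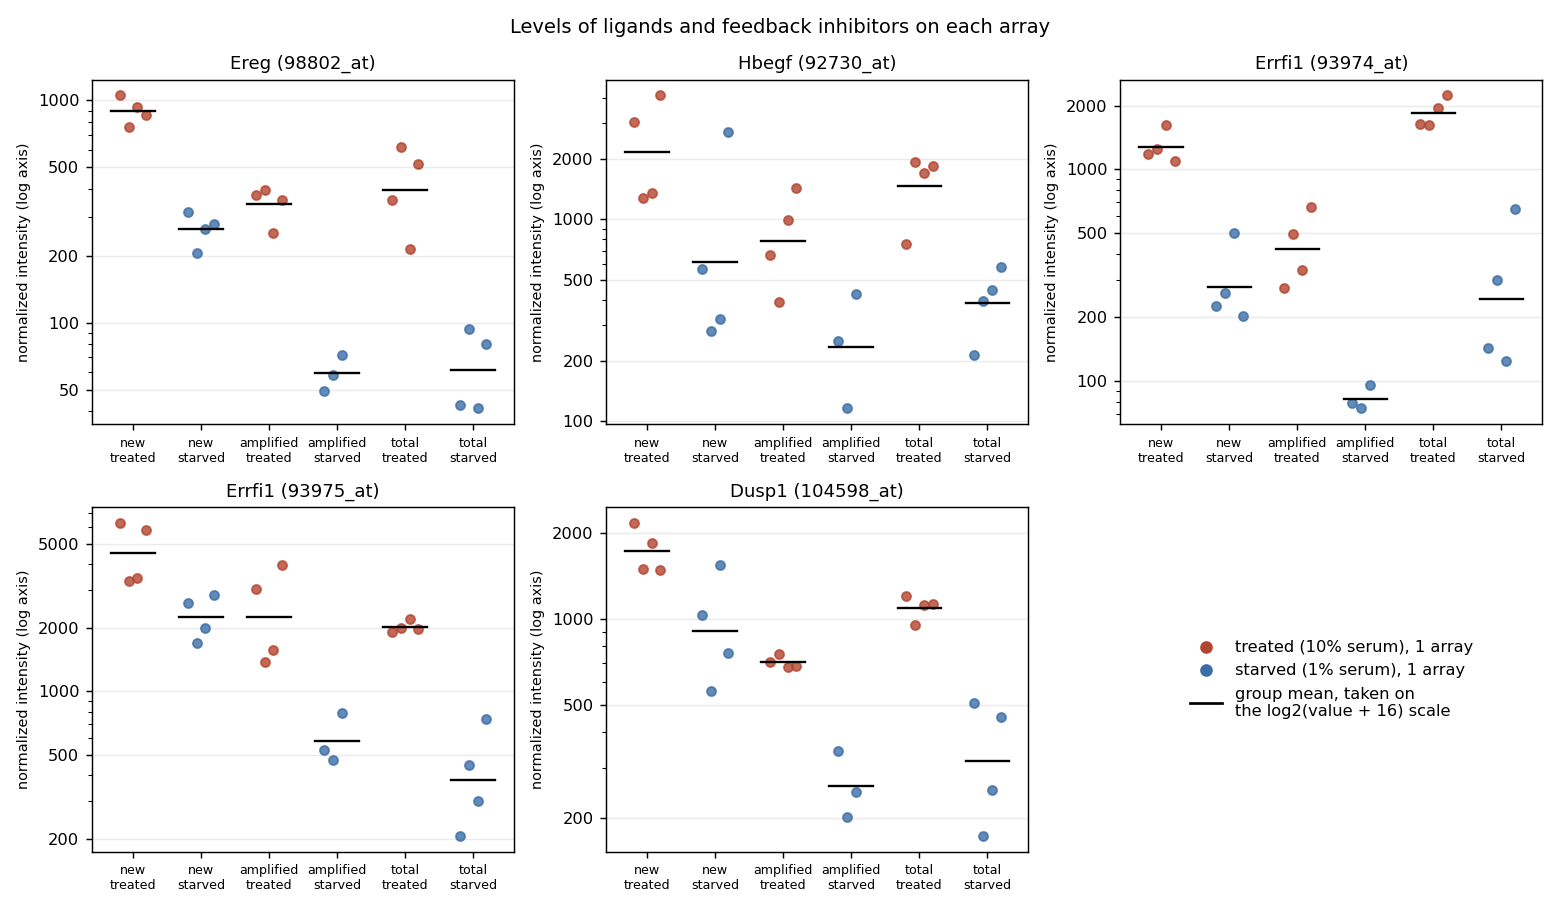
Normalized intensity (log axis) of the 5 probe sets of Ereg, Hbegf, Errfi1 and Dusp1 with high signal on each of the 23 arrays, by group, with treated groups left of starved ones; the line is the group mean on the log2(value + 16) scale. Ereg and both Errfi1 probe sets show no overlap between treated and starved arrays in any of the 3 kinds of RNA, and Hbegf shows the high newly transcribed starved array at 2721.

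No other measured gene of the ligand list was called. Of 12 genes listed under EGF family ligands, 7 were measured. With the pairs the 2 that rose in newly transcribed RNA, and the 2 that rose in total RNA, were Ereg and Hbegf. Of all probe sets, 0.91% and 0.459% were called higher in these fits. Mean intensities over all arrays were 10.9 for Tgfa, 6.58 for Tdgf1, 6.22 for Egf, 2.53 for Nrg3 and 1.18 for Btc, all below the constant of 16 added before the logarithm. The median serum difference of the list was -0.16 in newly transcribed and -0.01 in total RNA, against -0.01 and -0.02 over all genes.

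Of 10 listed genes for shedding proteases and their inhibitor, 8 were measured, which were 7 proteases and 1 inhibitor, Timp3. Adam8, a metalloprotease, had mean intensities of 685 treated and 278 starved in newly transcribed RNA and rose by 1.19 ± 0.19 with the pairs (adjusted p = 0.0437), a call that the unblocked fit did not make (adjusted p = 0.835). It had 0.81 ± 0.17 in total RNA (adjusted p = 0.206, unblocked 1). With the pairs Adam19 had 0.63 ± 0.16 in newly transcribed RNA (adjusted p = 0.0992, unblocked 0.921) and 1.17 ± 0.21 in total RNA (adjusted p = 0.122, unblocked 0.695). Adam10, a main sheddase of EGF family ligands, had -0.48 ± 0.12 with the pairs in newly transcribed RNA (adjusted p = 0.0915, unblocked 1) and -0.08 ± 0.13 in total RNA (adjusted p = 0.908, unblocked 1). A second Adam10 probe set had 0.10 in newly transcribed (adjusted p = 0.671) and -0.01 in total RNA (adjusted p = 0.991) with the pairs. Adam17, the other main sheddase, was dim, with a mean intensity of 16.5. The median over all 8 was 0.05 in newly transcribed and -0.01 in total RNA.

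The receptor gene showed no called serum response. Egfr probe set 101840_at had 41.5, 85.0, 72.6 and 67.3 on newly transcribed treated arrays, against 44.1, 85.9, 72.3 and 86.8 on starved arrays. It had 24.5, 42.1, 34.9 and 25.1 on amplified treated arrays, against 28.1, 40.5 and 39.2 on starved ones. On total RNA arrays it had 56.7, 102, 63.8 and 52.9 treated, against 45.7, 73.0, 70.1 and 75.9 starved. Treated and starved arrays overlapped in every kind of RNA.

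Its serum difference was -0.09 ± 0.24 in newly transcribed RNA, with a 95% interval of -0.65 to 0.46, and 0.03 ± 0.20 in total RNA (-0.44 to 0.49). With the pairs the intervals narrowed to -0.37 to 0.18 in newly transcribed and -0.35 to 0.41 in total RNA. Probe set 101841_at had -0.11 ± 0.34 and 0.11 ± 0.16, and 101842_g_at had 0.12 ± 0.37 and -0.07 ± 0.27, in newly transcribed and total RNA. With the values as deposited the last of these probe sets had -0.15 and 0.28. In amplified total RNA the 3 probe sets had -0.13 ± 0.21, 0.51 ± 0.45 and 0.52 ± 0.69. The widest of these intervals, that of 101842_g_at in amplified RNA, ran from -1.10 to 2.14.

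The 3 Egfr probe sets differed in their pattern over the kinds of RNA. By mean level, 101840_at was highest in newly transcribed starved RNA and lowest in amplified treated RNA, with all newly transcribed treated arrays above those of amplified starved RNA. Probe set 101841_at was highest in amplified treated RNA (74.0 to 149) and lowest in newly transcribed treated RNA (8.11 to 60.4). Probe set 101842_g_at was highest in total starved RNA (97.0 to 137) and lowest in newly transcribed starved RNA (22.9 to 58.5). For the last 2 no group was apart from its neighbour in the order. Of the other ERBB receptors, Erbb3 had a mean intensity of 14.2 and Erbb4, which binds Ereg and Hbegf as well, 4.45. With the pairs limma called 0 of 3 measured receptors in newly transcribed and in total RNA, and the list medians were 0.06 and 0.13. It called 0.91% and 0.459% of all probe sets higher there.

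**Figure D2:**
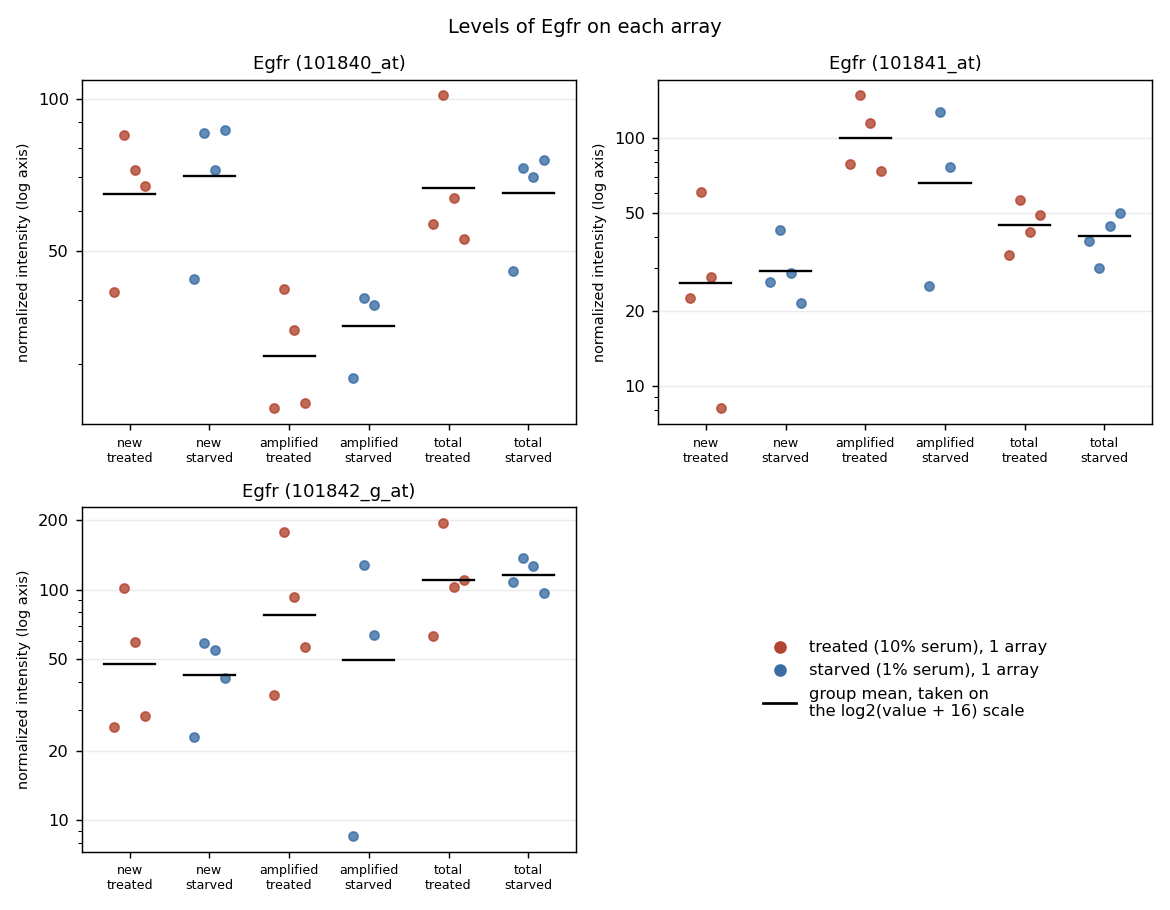
Normalized intensity (log axis) of the 3 Egfr probe sets on each of the 23 arrays, by group, with treated groups left of starved ones; the line is the group mean on the log2(value + 16) scale. Treated and starved arrays overlap in every panel, and the probe sets differ in which kind of RNA is highest.

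Errfi1, the inhibitor that acts on the receptor itself, was measured by 2 probe sets, and both stood higher in treated cells in all kinds of RNA. Probe set 93974_at had 1178, 1253, 1612 and 1094 on newly transcribed treated arrays, against 227, 261, 500 and 204 on starved arrays. It had 275, 498, 335 and 666 on amplified treated arrays, against 78.6, 74.5 and 96.0 on starved ones. In total RNA it had 1641, 1615, 1942 and 2234 treated, against 143, 299.8, 124 and 648 starved. No treated array fell into the range of the starved ones.

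Probe set 93975_at had 6250, 3308, 3433 and 5769 on newly transcribed treated arrays, against 2612, 1690, 1980 and 2845 on starved arrays. It had 3042, 1379, 1558 and 3936 on amplified treated arrays, against 524, 474 and 787 on starved ones. In total RNA the treated arrays had 1908, 1989, 2197 and 1962, against 206, 449, 303 and 735 for the starved arrays. Here too the treated arrays all lay above the starved ones.

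In total RNA the 93974_at difference was the largest of all 12422 probe sets, at 2.83 ± 0.45 (adjusted p = 0.102), and with the pairs it rose by 2.83 ± 0.34 (adjusted p = 0.0433). Probe set 93975_at had 2.36 ± 0.33 there (adjusted p = 0.0602) and with the pairs rose by 2.36 ± 0.28 (adjusted p = 0.0433). In newly transcribed RNA 93974_at had 2.12 ± 0.28 (adjusted p = 0.118) and with the pairs rose by 2.12 ± 0.15 (adjusted p = 0.0152). Probe set 93975_at had 1.01 ± 0.28 (adjusted p = 0.541) and with the pairs rose by 1.01 ± 0.12 (adjusted p = 0.0273). Amplified total RNA gave 2.14 ± 0.32 and 1.93 ± 0.42, with adjusted p of 0.919 and 1.

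The order of the groups differed between the probe sets. By mean level, 93974_at was highest in total treated RNA, then newly transcribed treated and then amplified treated RNA. These treated groups did not overlap, though the lowest total array (1615) lay barely above the highest newly transcribed one (1612). Amplified treated RNA overlapped newly transcribed starved RNA, which came next. The lowest group was amplified starved RNA, which was apart from total starved RNA. For 93975_at newly transcribed treated RNA was highest, followed by amplified treated, newly transcribed starved and total treated RNA, which overlapped their neighbours. Amplified starved and total starved RNA came last, apart from the treated total arrays but not from each other.

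Dusp1, the phosphatase that acts at the other end of the cascade, had 2168, 1493, 1852 and 1490 on newly transcribed treated arrays, against 1034, 557, 1548 and 759 on starved arrays. Starved array 3 exceeded treated arrays 2 and 4, so these groups overlapped. On amplified arrays it had 705, 753, 678 and 682 treated, against 344, 201 and 248 starved. On total RNA arrays it had 1199, 948, 1119 and 1129 treated, against 508, 173, 250 and 454 starved. In amplified and in total RNA the treated arrays all lay above the starved ones.

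The Dusp1 difference in newly transcribed RNA was 0.92 ± 0.31 (adjusted p = 0.665), and 0.92 ± 0.19 with the pairs (adjusted p = 0.0725), with pair differences of 1.06, 1.40, 0.26 and 0.96. It did not pass the test there. In total RNA it had 1.74 ± 0.31 (adjusted p = 0.148) and with the pairs rose by 1.74 ± 0.22 (adjusted p = 0.0478). Amplified total RNA gave 1.39 ± 0.21 (adjusted p = 0.919). By level, newly transcribed treated RNA was highest and apart from total treated RNA. Newly transcribed starved and amplified treated RNA followed, overlapping their neighbours, and the total and amplified starved groups lay below amplified treated RNA without overlap.

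RefSeq promoter sequences on build GRCm38.p6 were at hand for 3 of the 5 genes, Errfi1, Dusp1 and Egfr, and these are shown whatever their serum response. The 250 bases before each transcription start were searched on both strands for the cyclic AMP response element (CRE) TGACGTCA, its core TGACG, the AP-1 site TGANTCA, the E-box CACGTG and the CArG box. Every CRE holds the core on each strand. Capitals mark each match to the core on either strand.
Errfi1, chr4:150854820-150855069, plus strand: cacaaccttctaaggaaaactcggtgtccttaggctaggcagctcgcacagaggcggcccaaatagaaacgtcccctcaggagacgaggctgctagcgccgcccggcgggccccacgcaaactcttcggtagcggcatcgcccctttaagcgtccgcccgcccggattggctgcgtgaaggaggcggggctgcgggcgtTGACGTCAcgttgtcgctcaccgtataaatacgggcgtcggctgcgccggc
Dusp1, chr17:26508473-26508722, minus strand: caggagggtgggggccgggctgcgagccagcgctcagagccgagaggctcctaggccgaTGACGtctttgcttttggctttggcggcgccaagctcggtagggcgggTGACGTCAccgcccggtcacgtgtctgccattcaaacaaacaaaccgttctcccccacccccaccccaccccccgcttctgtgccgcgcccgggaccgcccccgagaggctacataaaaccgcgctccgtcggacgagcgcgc
Egfr, chr11:16751953-16752202, plus strand: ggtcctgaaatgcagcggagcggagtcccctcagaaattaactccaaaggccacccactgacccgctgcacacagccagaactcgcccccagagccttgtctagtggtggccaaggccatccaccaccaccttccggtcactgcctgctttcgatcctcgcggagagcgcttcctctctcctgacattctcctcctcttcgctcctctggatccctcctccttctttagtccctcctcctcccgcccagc

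The Errfi1 window held 1 CRE, which begins 51 bases before the start, and the Dusp1 window held 1 CRE, which begins 143 bases before it, and 1 more copy of the core. The Dusp1 window also held 1 E-box. The Egfr window held none of the 5 motifs, nor did the window of the other annotated Errfi1 start (chr4:150853546-150853795), whose sequence is not printed. Of 32851 promoter windows of the same length, 1.55% held a CRE, 17.8% the core, 6.75% an AP-1 site, 6.02% an E-box and 1.47% a CArG box. The motifs were chosen with the sequences in view, and a match is no evidence of binding.

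**Figure D3:**
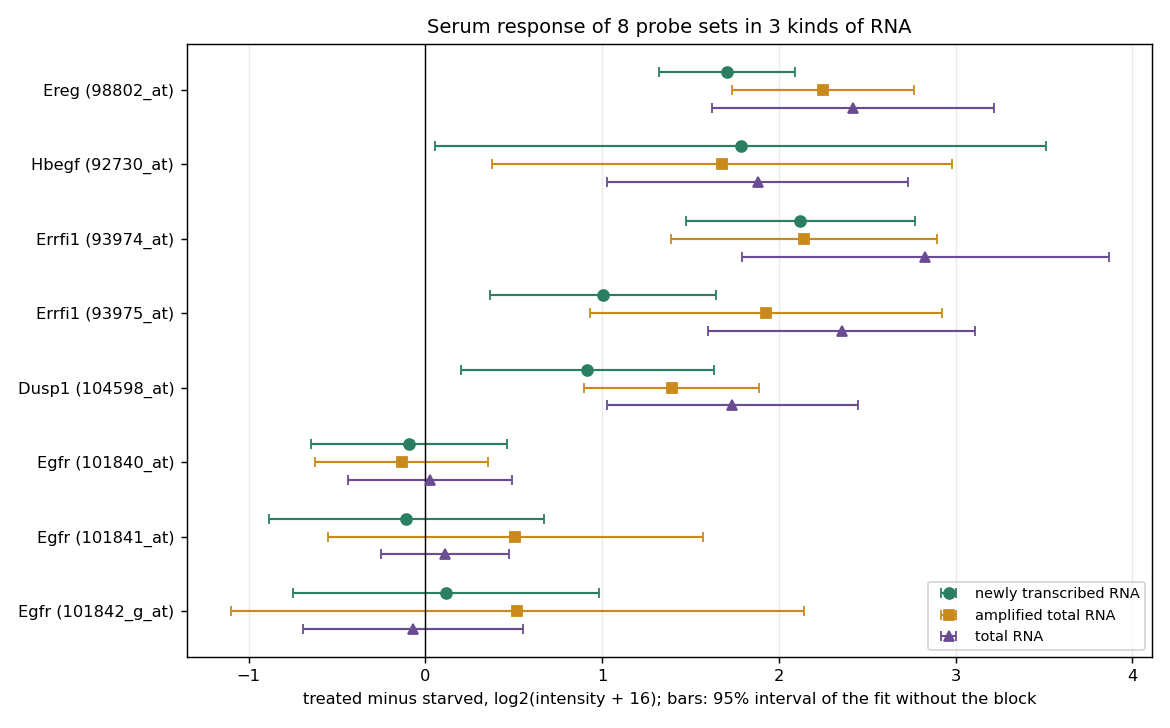
Serum response (treated minus starved, log2(intensity + 16)) of 8 probe sets in newly transcribed, amplified total and total RNA; points are limma estimates without the block and bars their 95% intervals. The ligands and inhibitors lie between 0.92 and 2.83, and the Egfr intervals all include 0.

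Counted over the circuit, limma without the block called 0 of 9 probe sets in newly transcribed RNA, where 0% of all probe sets were called higher, and 5 of 9 had an unadjusted p below 0.05, against 6.44% of all. In total RNA it also called 0 of 9, where 0.113% of all were called higher, again with 5 of 9 at an unadjusted p below 0.05, against 4.94% of all. In amplified total RNA it called 0 of 9, where 0% of all were called higher, and the same count of 5 had an unadjusted p below 0.05, against 1.41% of all. With the pairs, 4 of 9 rose in newly transcribed RNA, where 0.91% of all probe sets did, and 5 of 9 rose in total RNA, where 0.459% of all did. Errfi1 supplied 2 probe sets to each count. The 5 genes were chosen with earlier results of these data known, so setting their counts beside all probe sets is description, not a test. These paired counts ended at 0 with the values as deposited and at 0 with a pseudocount of 1. In both settings 0 of all 12422 probe sets were called with the pairs. Leaving out a pair gave 2, 0, 0 and 0 in newly transcribed RNA and 1, 2, 0 and 0 in total RNA, for pairs 1, 2, 3 and 4. Over all 12422 probe sets these fits made 25, 1, 0 and 0 calls in newly transcribed and 8, 10, 0 and 0 in total RNA.

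All treated arrays lay above all starved arrays for 3 of 9 probe sets in newly transcribed RNA, against 2.13% of all probe sets. The count was 5 of 9 in total RNA, against 1.52%, and 4 of 9 in amplified total RNA, against 1.26%. Within the array clusters, where groups held 2 arrays or 1, the Ereg difference in newly transcribed RNA was 1.63 in cluster 1 and 1.78 in cluster 2. The corresponding values were 1.49 and 2.08 for Hbegf, 2.31 and 1.93 for Errfi1 93974_at, 1.13 and 0.88 for 93975_at, and 1.01 and 0.83 for Dusp1. With the cluster as a block 3 of 9 were called higher in newly transcribed RNA, where 0.242% of all were.

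Some cell type markers moved with the serum groups in newly transcribed RNA. Summed intensities of 7 skeletal muscle markers were 313 to 1078 treated and 166 to 297 starved, without overlap, and those of 9 endothelial markers 490 to 739 treated and 323 to 517 starved, which overlapped. The 12 macrophage markers summed to 2533 to 6658 treated and 1305 to 4523 starved, and the 12 fibroblast markers to 8289 to 14244 treated and 9380 to 14445 starved, with overlap. With the pairs the muscle actin gene Acta1 rose by 2.10 ± 0.33 (adjusted p = 0.0417, unblocked 0.638). Its means of 598 treated and 98.3 starved made up most of the change in the muscle sum. The other muscle markers had means of at most 44.5 treated and 35.0 starved, and some were lower in treated cells. Among fibroblast markers Thy1 rose by 1.04 ± 0.12 (adjusted p = 0.0266, unblocked 0.983) and Lum, a collagen-binding proteoglycan, fell by 1.38 ± 0.23 (adjusted p = 0.0461, unblocked 0.935). The part of these markers in the serum responses was not tested.

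The ligands and inhibitors had smaller estimated serum responses in newly transcribed than in total RNA, but limma called 0 of 9 differences of the responses. It called 0 of all probe sets there too, so this count does not set the members apart. The newly transcribed minus total difference was -1.35 ± 0.45 for Errfi1 93975_at, with an unadjusted p of 0.00996 and an adjusted p of 0.999. Of the 9, that was the 1 probe set with an unadjusted p below 0.05, against 299 of all probe sets. For Dusp1 it was -0.82 ± 0.46, for Ereg -0.71 ± 0.41, for Errfi1 93974_at -0.71 ± 0.57 and for Hbegf -0.10 ± 0.88, where leaving out newly transcribed starved array 4 turned the sign (0.61 ± 0.64). With the number within each kind as a block, Errfi1 93975_at and Ereg had an adjusted p of 0.294 each. Again 0 of 9 were called, and 0 of all probe sets. In that fit 3 of 9 had an unadjusted p below 0.05, against 1343 of all. The newly transcribed minus amplified difference was -0.92 ± 0.51 for Errfi1 93975_at, -0.54 ± 0.26 for Ereg, -0.48 ± 0.39 for Dusp1, -0.02 ± 0.43 for Errfi1 93974_at and 0.11 ± 1.01 for Hbegf. There 0 of 9 were called, and 0 of all probe sets. An unadjusted p below 0.05 was found for 0 of 9, against 201 of all. The 95% interval for Ereg, from -1.11 to 0.03, and that for Hbegf, from -2.06 to 2.28, include 0.

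Against amplified total RNA of the same condition, both inhibitors and Ereg had higher normalized levels in newly transcribed RNA. Errfi1 93975_at was called in starved cells alone. Normalized levels are relative to the other probe sets of an array. Against total RNA, Errfi1 93974_at was not higher: its means were 298 newly transcribed and 304 total in starved cells, and 1284 and 1858 in treated cells. In starved cells limma called 4 of 9 higher, where 2.42% of all probe sets were called higher, and 0 of 9 lower, where 3.33% were. Ereg was higher by 1.89 ± 0.19 (adjusted p = 0.0003), Errfi1 by 1.59 ± 0.32 (93974_at, adjusted p = 0.0107) and 1.92 ± 0.38 (93975_at, adjusted p = 0.00914), and Dusp1 by 1.75 ± 0.29 (adjusted p = 0.00362). Hbegf had 1.34 ± 0.74 (adjusted p = 0.377), and 0.64 ± 0.59 without newly transcribed starved array 4. Without amplified starved array 2 both Errfi1 probe sets lost the call (adjusted p = 0.0511 each), which left 2 of 9. Over all 12422 probe sets that fit made 345 calls, against 715 in the main fit.

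In treated cells limma called 4 of 9 higher, where 2.6% of all probe sets were called higher, and 1 lower, where 4.66% were. Ereg was higher by 1.35 ± 0.18 (adjusted p = 0.0007), Errfi1 93974_at by 1.56 ± 0.29 (adjusted p = 0.00594), Dusp1 by 1.28 ± 0.27 (adjusted p = 0.0106) and Egfr 101840_at by 0.78 ± 0.22 (adjusted p = 0.0476). Egfr 101841_at was lower, at -1.48 ± 0.39 (adjusted p = 0.0374). Errfi1 93975_at had 0.99 ± 0.35 (adjusted p = 0.114) and Hbegf 1.45 ± 0.68 (adjusted p = 0.263). With the number as a block these also passed, at adjusted p = 0.0122 and 0.0219. That fit also blocked the starved arrays, whose correlations between these kinds ran from -0.39 to 0.68, so it is an alternative only. The calls for Ereg, Errfi1 93974_at and Dusp1 held in each of 15 fits that left out 1 array, while that for Egfr 101840_at was lost in 12 of them and that for Egfr 101841_at in 6. These fits had between 3 and 5 calls, with 3 without amplified treated array 2 or 3, newly transcribed starved array 3, or newly transcribed treated array 3 or 4. The fits with 3 made 563 to 780 calls over all 12422 probe sets, against 902 in the main fit. Both comparisons, starved and treated, had 0 calls with the values as deposited, among the 9 and among all 12422.

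Between amplified and total RNA many of all probe sets were called, and some of the members were among them. Amplified against total RNA, over both serum conditions, limma called 1 of 9 higher, where 9.83% of all probe sets were, and 2 of 9 lower, where 8.99% were. With the values as deposited 0 of 9 were called, and 264 of all 12422. Errfi1 93974_at was lower by -1.75 ± 0.30 (adjusted p = 0.00149), while 93975_at of the same gene had 0.38 ± 0.28 (adjusted p = 0.39). Egfr 101840_at was lower at -0.73 ± 0.15 (adjusted p = 0.00378) and Egfr 101841_at higher at 0.74 ± 0.23 (adjusted p = 0.0407), and the call for 101841_at was lost without any 1 of amplified starved arrays 2 and 3, amplified treated arrays 2 and 3, or any 1 of the 8 total RNA arrays. Ereg had -0.12 ± 0.22, Hbegf -0.79 ± 0.34 and Dusp1 -0.45 ± 0.20, none called. The kinds of RNA also differed along control transcripts: the log2 excess of the 3′ over the 5′ probe set of GAPDH was 2.16 ± 0.65 on newly transcribed (SD, n = 8), 1.55 ± 0.60 on amplified (n = 7) and -0.20 ± 0.11 on total RNA arrays (n = 8). For beta-actin the excess was 2.37 ± 0.55, 2.27 ± 0.44 and 0.35 ± 0.17 in the same order. The part of this in the differences between kinds was not tested, and comparisons between kinds share arrays.

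**Figure D4:**
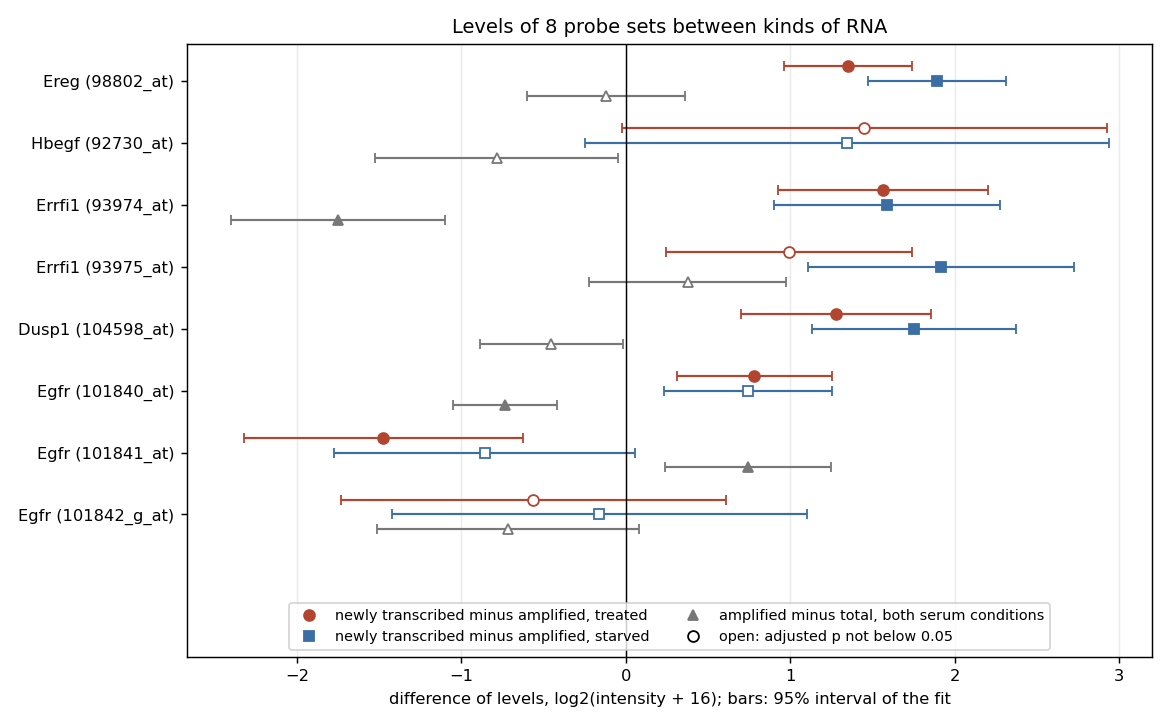
Differences of level between kinds of RNA (log2(intensity + 16)) for 8 probe sets: newly transcribed minus amplified total RNA in treated and in starved cells, and amplified minus total RNA over both; points are limma estimates, bars 95% intervals, open points had an adjusted p not below 0.05. Ereg, Errfi1 93974_at and Dusp1 lie right of 0 in both newly transcribed comparisons, while the Egfr probe sets 101840_at and 101841_at lie on opposite sides.

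Among the other feedback inhibitors few were called. Beside the paired counts of these lists, 0.91% of all probe sets were called higher in newly transcribed and 0.459% in total RNA. Of 13 inhibitors that act on the receptor or its adaptors, 7 were measured, and with the pairs 1 rose in newly transcribed and 1 in total RNA, Errfi1 in each case. Socs5, which targets EGF receptors for degradation, had 0.49 ± 0.12 with the pairs in newly transcribed RNA (adjusted p = 0.0973, unblocked 0.965) and 0.26 ± 0.11 in total RNA (adjusted p = 0.49, unblocked 1). The phosphatase gene Ptpn12 had 0.17 ± 0.11 and 0.40 ± 0.25 with the pairs (unblocked adjusted p = 1 in both). All 7 had a positive difference in newly transcribed and 5 of 7 in total RNA, with list medians of 0.30 and 0.26.

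Inhibitors of RAS signalling were measured for 6 of 10 genes. Spred2, which keeps RAF from being activated, had mean intensities of 208 treated and 77.2 starved in total RNA and rose there by 1.25 ± 0.15 (adjusted p = 0.0247 without the block, 0.0293 with it). It had 1.00 ± 0.29 in newly transcribed RNA with the pairs (adjusted p = 0.128, unblocked 0.58). It was 1 of 6 called in total RNA and 0 of 6 were called in newly transcribed RNA, with list medians of 0.14 in total and 0.25 in newly transcribed RNA.

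Among MAP kinase phosphatases, 6 of 11 were measured, and Dusp1 was the 1 of 6 called in total RNA with the pairs, with 0 of 6 in newly transcribed RNA. Dusp6, a cytoplasmic phosphatase specific for ERK, had mean intensities of 1684 treated and 865 starved in newly transcribed RNA, and 365 treated and 124 starved in total RNA. With the pairs its difference was 0.92 ± 0.18 in newly transcribed (adjusted p = 0.063) and 1.59 ± 0.23 in total RNA (adjusted p = 0.0725), not called in either. Without the block these were 0.92 ± 0.72 (adjusted p = 0.995) and 1.59 ± 0.42 (adjusted p = 0.509). The other Dusp6 probe set had 0.06 in newly transcribed (adjusted p = 0.814) and 0.08 in total RNA (adjusted p = 0.926) with the pairs. Dusp2 had 0.49 ± 0.18 in newly transcribed (adjusted p = 0.193, unblocked 0.711) and 1.32 ± 0.42 in total RNA with the pairs (adjusted p = 0.366, unblocked 0.703). The list medians were 0.39 in newly transcribed and 0.86 in total RNA.

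The cascade and its targets were counted in the same way. Of 14 measured adaptors and kinases of the RAS to ERK cascade, 0 were called in newly transcribed or total RNA, and the list medians were 0.00 and 0.01. The adaptor gene Gab1 had -0.96 ± 0.21 in newly transcribed RNA with the pairs (adjusted p = 0.0739, unblocked 0.803) and -0.43 ± 0.12 in total RNA (adjusted p = 0.301, unblocked 0.979). Its other probe set had -0.37 and -0.33 with the pairs (adjusted p = 0.222 and 0.345). Of 16 measured ERK-dependent immediate early genes, 6 rose with the pairs in newly transcribed and 6 in total RNA. The list medians were 1.07 and 1.13. They were, in both, Fosb, Fosl1 and Junb, which are AP-1 subunits, the transcription factors Egr2 and Myc, and Phlda1. For Junb this is the brightest probe set. Its other probe set had 1.39 in newly transcribed RNA with the pairs (adjusted p = 0.0598), not called. In total RNA that probe set rose by 2.38 (adjusted p = 0.0328). With the pairs Fosb rose by 2.56 ± 0.28 in newly transcribed (adjusted p = 0.0261, unblocked 0.239) and 2.38 ± 0.18 in total RNA (adjusted p = 0.0172, unblocked 0.00721). Phlda1 rose by 1.99 ± 0.21 (adjusted p = 0.0261, unblocked 0.239) and 1.96 ± 0.18 (adjusted p = 0.0223, unblocked 0.0205). Without the block, 4 of the 16 were called in total RNA and 0 in newly transcribed RNA, against 0.113% and 0% of all called higher. Outside the circuit, 62 genes of these 8 lists were measured. With the pairs 7 of them rose in newly transcribed and 7 in total RNA, 0 fell in either, and 0 were called in amplified total RNA. With deposited values or a pseudocount of 1 the paired fits called 0 of all 12422 probe sets, these genes included. The lists were chosen with earlier results of these data known, so their counts are description, not a test.

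**Figure D5:**
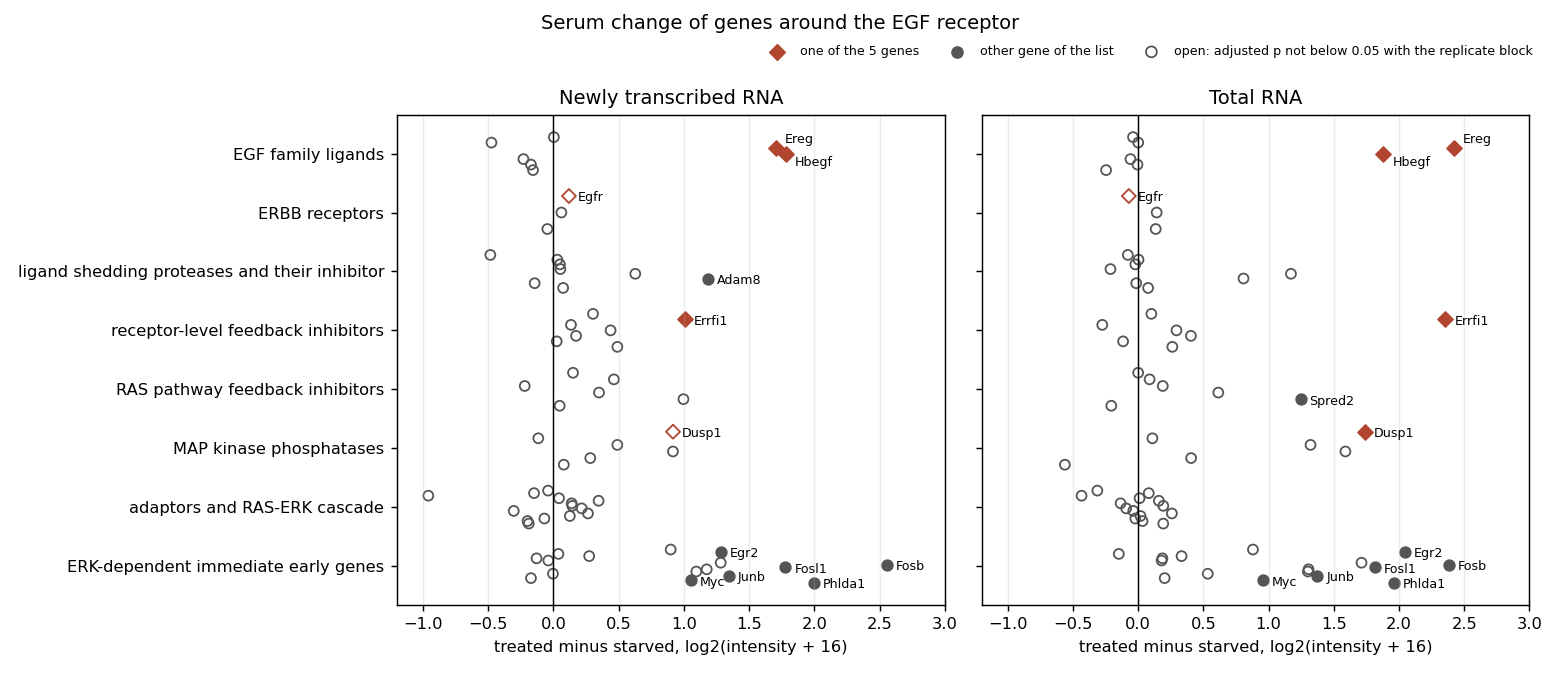
Serum change (treated minus starved, log2(intensity + 16)) of 67 measured genes in 8 lists around the EGF receptor, in newly transcribed RNA (left) and total RNA (right), each gene by its brightest probe set; diamonds are the 5 genes of the circuit, filled points passed an adjusted p of 0.05 with the replicate block. Ereg, Hbegf and Errfi1 stand to the right of the rest of their lists in both panels, and Dusp1 is filled in total RNA alone.

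Genes with the most similar pattern were named for each probe set whose 6 group means spanned at least 1 log2 unit, by the root mean square difference between centred log2 group means over 6 groups. Nearest to Ereg were Ptgs2, the inducible prostaglandin synthase (0.15), the gap junction gene Gjb2 (0.20) and Errfi1 by probe set 93975_at (0.30). Nearest to Hbegf were Fosl1 (0.089), Phlda1 (0.13) and the sulfiredoxin gene Srxn1 (0.21). Dusp1 was closest to Noct, a circadian-regulated gene (0.11), the ephrin receptor gene Epha2 (0.19) and the tissue factor gene F3 (0.21). Errfi1 93974_at had no neighbour nearer than the integrin gene Itga5 (0.36), followed by Vegfa (0.38) and Inhba (0.43), and 93975_at was nearest to Egr2 (0.24), Ereg (0.30) and Gadd45b (0.37). Egfr 101841_at lay closest to Psmb8 (0.034), Idnk (0.087) and Agpat3 (0.11), and 101842_g_at to Ogdh (0.044), Phb2 (0.053) and Mbd3 (0.059). These are descriptions over 6 means.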

How the data were processed

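The authors deposited 1 probe set intensity per array, in linear units and including zeros. The summary software and scaling are not given in the sources used here, and no detection calls were used. All 23 arrays were quantile normalized and transformed to log2(intensity + 16). Of 12488 probe sets, 66 controls were left out of testing, which left 12422. Differences were tested with limma 3.58.1 in R 4.3.3, on the arrays of the kinds of RNA compared, with Benjamini-Hochberg adjustment over all 12422 probe sets. The alternatives were values as deposited, scaling to 1 median, pseudocounts of 1 and 64, a minimum mean intensity of 50, all 23 arrays in 1 fit, the replicate number or array cluster as a block, and leaving out each array.

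The pairing check correlated deviations from group means between same-numbered arrays. Correlations were 0.70 to 0.80 for newly transcribed and 0.23 to 0.70 for total RNA across serum, 0.56 to 0.73 for newly transcribed and amplified treated arrays, and 0.14 to 0.30 for amplified and total treated arrays, all above the limit of 0.1. They were -0.47 to 0.76 for amplified RNA across serum, -0.39 to 0.68 for newly transcribed and amplified starved arrays, and 0.07 to 0.31 for amplified and total starved arrays. Where nothing ties arrays to separate cultures, p-values measure the spread between these arrays, which may be technical. The number of arrays limits the precision.

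Gene names came from the platform annotation, and all 9 symbols matched RefSeq. Members and gene lists were chosen with earlier results of these data known. Named outside the circuit were the called genes of the lists and the 3 nearest in pattern. From each list the gene with the largest serum change in newly transcribed or in total RNA was also named, at a mean intensity of at least 50. Adam10 and Dusp2, among the 3 largest of their lists, were added by name. Dim genes named by level alone were chosen after their values were seen. Promoters came from RefSeq.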

Additional observations from a re-analysis of the deposited data

Results flagged for a closer look

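Of 45 groups of values examined, 2 held an array far from the others, and chance gives about 1 in 20. In total treated RNA, Hbegf on array 1 had an intensity of 752, while the other 3 arrays had 1694 to 1916. Without that array the serum difference in total RNA was 2.19 ± 0.30 on the log2 scale (limma, adjusted p = 0.0619). In total starved RNA, Egfr probe set 101840_at on array 1 had an intensity of 45.7, while the other 3 arrays had 70.1 to 75.9.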

How the results depend on the processing

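Calls among the 9 probe sets depended on the setting, and the cause was not tested. In brackets, "of all" gives the calls over all 12422 probe sets in the same fit. For the serum response in newly transcribed RNA limma called 0 in the main fit (0 of all). It called 1 with a pseudocount of 64 (3 of all) and 2 with all 23 arrays in the fit (30 of all). It called 3 with the cluster block (45 of all) and 4 with the replicate block (216 of all). With the replicate block it called 5 after median scaling (296 of all) and 3 with a pseudocount of 64 (124 of all). For total RNA it called 0 in the main fit (15 of all) and 2 after median scaling (18 of all). It called 3 without dim probe sets (24 of the 5933 left) and 4 with all arrays (12 of all). The replicate block gave 5 (60 of all), and with it 5 after median scaling (69 of all) and 2 with a pseudocount of 64 (52 of all). For amplified RNA it called 1 with all arrays (3 of all) and 0 with the replicate block (0 of all). Leaving out arrays or pairs gave 0 to 2 in newly transcribed RNA, 0 to 2 in total RNA and 0 in amplified RNA. Newly transcribed RNA had 1 without starved array 3 (1 of all), and total RNA had 2 without starved array 4 (7 of all). The differences of responses had 0 calls throughout, the replicate block included. In the main fit and with that block they had 0 of all. Newly transcribed against amplified RNA in starved cells had 4 calls in the main fit (715 of all) and 0 with deposited values (0 of all). It had 7 with the cluster block (2301 of all), 5 with the replicate block (1912 of all) and 2 to 5 with 1 array left out. In treated cells the main fit had 5 (902 of all) and deposited values 0 (0 of all). A pseudocount of 1 gave 3 (596 of all), the replicate block 7 (2328 of all) and leaving out 1 array 3 to 5. Amplified against total RNA had 3 in the main fit (2338 of all) and 0 with deposited values (264 of all). It had 4 with the replicate block (3081 of all) and 2 to 3 with 1 array left out.

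Signs turned for small differences. With deposited values the serum difference of Egfr 101842_g_at was -0.15 in newly transcribed and 0.28 in total RNA (blocked or not), that of Ptpn12 -0.15 in newly transcribed RNA, that of Adam10 0.32 in total RNA and that of Egfr 101840_at 0.091 in amplified RNA, and Egfr 101842_g_at had 0.15 between newly transcribed and amplified starved RNA. For newly transcribed minus amplified responses, Hbegf had -0.99 with deposited values, -0.19 after median scaling and -0.050 with the cluster block, and Errfi1 93974_at had 0.22 with a pseudocount of 64 and 0.19 with the replicate block. For amplified against total RNA, Ereg had 0.041 after median scaling, and with the cluster block Egfr 101842_g_at had 0.12 and Errfi1 93975_at -0.15. With arrays left out, serum differences of Egfr in newly transcribed RNA ran from -0.27 to 0.070 (101840_at), -0.40 to 0.16 (101841_at) and -0.18 to 0.33 (101842_g_at), in total RNA from -0.14 to 0.18, -0.069 to 0.21 and -0.32 to 0.15, and for 101842_g_at in amplified RNA from -0.19 to 1.09, and that of Adam10 in total RNA from -0.21 to 0.095. Newly transcribed minus total responses of Hbegf ran from -0.46 to 0.61, newly transcribed minus amplified ones from -0.31 to 0.81 for Hbegf and -0.21 to 0.25 for Errfi1 93974_at, and Egfr 101842_g_at from -0.87 to 0.41 between newly transcribed and amplified starved RNA. Deposited values shifted the median of all probe sets by -0.18 (newly transcribed), 0.21 (total) and 0.25 (amplified) in the serum responses. Dim signal limits Egfr, the other ligands and Ereg 161158_f_at.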
